A study of Rattus norvegicus with 4 samples.

Results

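The renin-angiotensin genes described here are Ace, Agt, Agtr1a, Agtr1b and Agtr2, the rat genes of angiotensin-converting enzyme, angiotensinogen and the angiotensin II receptors. They were taken as all probe sets whose platform gene symbol is, or includes, one of the 5 genes, which gave 13 of the 8799 probe sets on the array and 5 of 4736 genes with a probe set of their own symbol. Ace had 2 probe sets, Agt 1, Agtr1a 4, Agtr1b 4 and Agtr2 2. RNA from left ventricles of rats was measured on 4 Affymetrix oligonucleotide arrays, 1 each for terminal heart failure, double transgenic rats that overexpress human renin and human angiotensinogen (dTGR), dTGR given losartan, and a Sprague Dawley control (SD control). All 4 samples carry 1 description, of the transgenic rat with hypertension, heart hypertrophy and proteinuria, and the title of the terminal sample names no genotype of its own. The age and number of animals, the dose and duration of losartan, the promoters of the transgenes and any pooling of RNA were not known here.

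In the renin-angiotensin system, renin cuts angiotensinogen to angiotensin I, and angiotensin-converting enzyme trims this to angiotensin II, the active hormone. Angiotensin II acts on the heart and vessels mainly through the AT1 receptor, which rodents make from a pair of genes, Agtr1a and Agtr1b, while the AT2 receptor, from Agtr2, often opposes AT1. In the heart the converting enzyme is an endothelial surface protein above all, and losartan blocks the AT1 receptor. In dTGR the added hormone comes from human transgenes, so these rat probe sets describe the animal's own genes. Whether any of them also binds human angiotensinogen RNA was not tested.

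Ace was the 1 gene of the 5 that was clearly measured. Its probe set U03734_at was 3.88-fold higher in terminal heart failure than in SD control, 1.48-fold higher in dTGR and 1.11-fold higher in losartan-treated dTGR. Agt lay close to the lower limit of measurement on every array. Of the 10 probe sets of the AT1 and AT2 receptor genes, 7 were under that limit on all arrays, and the 2 of Agtr1b that were over it on some arrays differed in opposite directions between losartan-treated dTGR and dTGR.

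That lower limit, called the floor, was an intensity of 26.0, the 40th percentile of all values of the 4 arrays together. A value from the floor to under 2 times the floor (52.0) is called near the floor. Of the 52 values of the members, 35 lay under the floor, 11 near it and 6 above that range, whereas 37.4% of the values of all probe sets with a gene symbol lay under the floor. U03734_at held 4 of the 6 higher values, and was over the floor on all arrays. Another 5 probe sets were over the floor on at least 1 array, and 7 were under it on all 4. Over the floor were 4 member probe sets in terminal heart failure, in dTGR 5, in losartan-treated dTGR 3 and in SD control 5. With 1 array a group there are no replicates, so no difference below has an error between animals or a test.

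**Figure D1:**
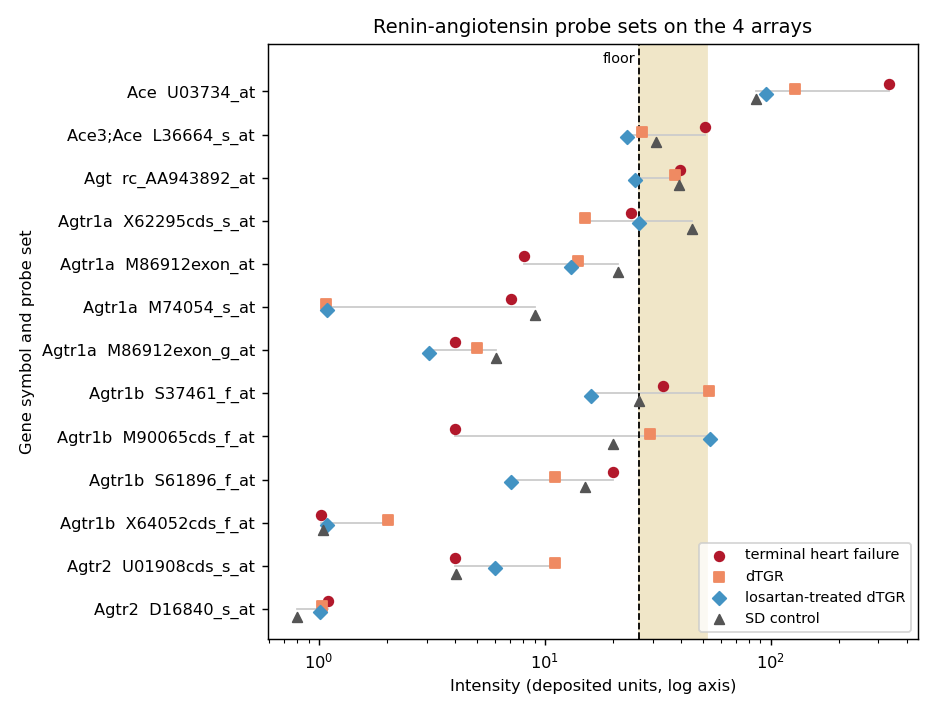
Intensity of each of the 13 member probe sets (rows) on the 4 arrays (symbols), on a log axis in the deposited units. The dashed line is the floor of 26.0 and the shaded range runs to 52.0; only the Ace probe set U03734_at lies to the right of the shaded range on every array, while 7 probe sets lie left of the floor on all 4.

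Ace stands on chromosome 10 of the rat, at positions 91410129 to 91430246 of the GRCr8 assembly. The stretch before its start is printed because Ace is the member whose signal the results turn on. It covers the 250 bases upstream on the plus strand, chr10:91409879-91410128, from RefSeq's GRCr8 promoter table, with capitals on the letters of 4 GC boxes and 1 TATA motif.
Ace: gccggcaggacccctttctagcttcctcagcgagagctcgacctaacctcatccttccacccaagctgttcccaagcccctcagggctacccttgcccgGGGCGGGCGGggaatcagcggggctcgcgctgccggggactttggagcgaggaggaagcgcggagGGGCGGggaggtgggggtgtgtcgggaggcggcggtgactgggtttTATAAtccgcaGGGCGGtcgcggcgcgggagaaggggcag
The GC box was searched as GGGCGG on both strands, and all 4 matches, the first pair overlapping, lay on the plus strand. The TATA motif was searched as TATAA on the plus strand. Among 33469 rat promoters of the same length, 30.5% held a GC box and 16.7% the TATA motif by the same search. These matches describe the letters of the window and say nothing of which factor binds there.

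U03734_at had an intensity of 333.80 in terminal heart failure, 127.70 in dTGR, 95.1 in losartan-treated dTGR and 86.00 in SD control. The terminal array stood apart from the other 3, which spanned 86.00 to 127.70. In multiples of the floor, these values were 12.8, 4.91, 3.66 and 3.31. Terminal heart failure was 2.62-fold higher than dTGR and 3.51-fold higher than losartan-treated dTGR. Losartan-treated dTGR was 1.34-fold lower than dTGR, a log2 difference of -0.42. The log2 differences from SD control were 1.96 for terminal heart failure, 0.57 for dTGR and 0.14 for losartan-treated dTGR.

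Differences of this kind can be read against the scatter between probe sets of 1 gene on the same arrays, whose standard deviation was 0.51 to 0.60 on the log2 scale over the 6 comparisons. For terminal heart failure against SD control that scatter was 0.51, and the Ace difference of 1.96 exceeded it. For dTGR against SD control the scatter was 0.53 beside an Ace difference of 0.57, and for losartan-treated dTGR against dTGR it was 0.60 beside -0.42, so the sizes of these were close to or inside the scatter. Among the 1700 probe sets within 2-fold of the mean Ace level, 41 (2.41%) were higher by as much in terminal heart failure against SD control, and 12.3% were in dTGR against SD control. For terminal heart failure against dTGR the share was 5.40%, and against losartan-treated dTGR 3.24%. For losartan-treated dTGR against dTGR, 28.3% were lower by as much.

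**Figure D2:**
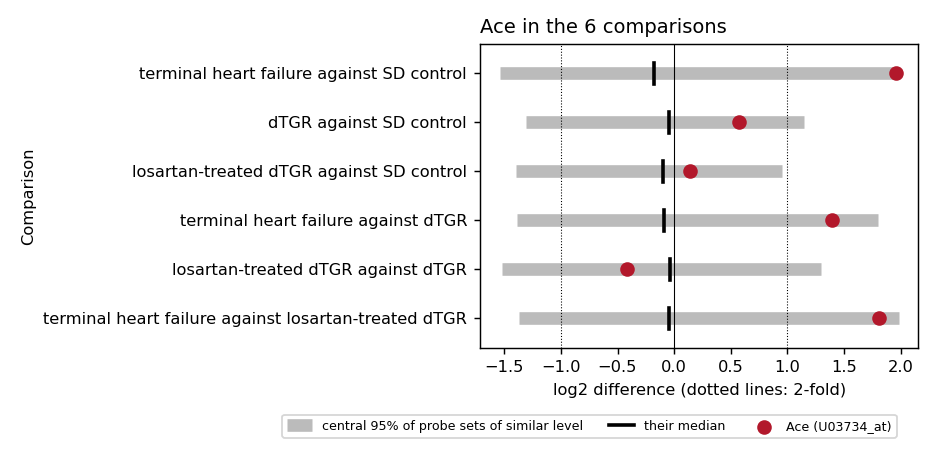
log2 difference of the Ace probe set U03734_at (red points) in each of the 6 comparisons. Grey bars span the central 95% of probe sets within 2-fold of its mean level and black ticks mark their median; the Ace point lies at 1.96, just past the end of the bar (1.94), for terminal heart failure against SD control, and inside the bar in the other 5.

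The other Ace probe set, L36664_s_at, is assigned by the platform to both Ace and Ace3, a neighbouring gene of the same family on chromosome 10, so its signal cannot be given to Ace alone. It had 51.20 in terminal heart failure, 27.01 in dTGR, 23.01 in losartan-treated dTGR and 31.05 in SD control. The terminal array was again the highest, at 1.97 times the floor, and the losartan array was under the floor. Terminal heart failure was 1.65-fold higher than SD control, 1.90-fold higher than dTGR and at least 1.97-fold higher than losartan-treated dTGR. The differences of terminal heart failure from dTGR and from losartan-treated dTGR passed 2-fold after quantile normalization, scaling to the same median and cyclic loess. dTGR was 1.15-fold lower than SD control, against the direction of U03734_at.

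Agt, which encodes the substrate of renin, has its gene on chromosome 19 and was represented by rc_AA943892_at. Its intensity was 39.60 in terminal heart failure, 37.70 in dTGR, 25.04 in losartan-treated dTGR and 39.10 in SD control. The terminal, dTGR and control arrays lay within 1.05-fold of each other, all near the floor, and the losartan array lay under it. Losartan-treated dTGR was therefore at least 1.45-fold lower than dTGR and at least 1.50-fold lower than SD control, neither of which reached 2-fold.

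Of the 4 probe sets of Agtr1a (chromosome 17), X62295cds_s_at was the only one over the floor on any array. It had 24.08 in terminal heart failure, 15.09 in dTGR, 26.01 in losartan-treated dTGR and 45.00 in SD control. The control array was the highest, while losartan-treated dTGR lay at the floor and the other two under it. Terminal heart failure and dTGR were each at least 1.73-fold lower than SD control. Losartan-treated dTGR was 1.73-fold lower as well. The other 3 probe sets, M86912exon_at, M74054_s_at and M86912exon_g_at, ranged from 1.07 to 21.09 over the 4 arrays. Values under the floor have no order, so they neither repeat nor oppose the first.

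All 4 probe sets of Agtr1b (chromosome 2) bear the suffix f, which Affymetrix gave to probe sets whose probes can match other members of a gene family, and the AT1 receptor genes are close relatives. How far each of them registers Agtr1a was not tested. S37461_f_at had 33.50 in terminal heart failure, 53.10 in dTGR, 16 in losartan-treated dTGR and 26.08 in SD control. It was highest in dTGR, 2.04-fold above SD control, and losartan-treated dTGR was at least 2.04-fold lower than dTGR. Its control value sat at the floor. Both differences were under 2-fold after quantile normalization, scaling to the same median and cyclic loess, with log2 values for losartan-treated dTGR against dTGR of -0.87, -0.85 and -0.82.

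M90065cds_f_at ran otherwise. It had 4.01 in terminal heart failure, 29.09 in dTGR, 54.1 in losartan-treated dTGR and 20.07 in SD control. Here the losartan array was highest, 1.86-fold above dTGR and at least 2.08-fold above SD control, and terminal heart failure was at least 2.08-fold lower than losartan-treated dTGR. Between losartan-treated dTGR and dTGR these probe sets of Agtr1b thus differed in opposite directions, and the same scalings put M90065cds_f_at past 2-fold there (a log2 difference of 1.14 after quantile normalization). Both were over the floor in dTGR and had the same sign in dTGR against SD control (1.03 for S37461_f_at and 0.16, a bound, for M90065cds_f_at) and in terminal heart failure against dTGR (-0.66, and a bound of -0.16). S61896_f_at (7.09 to 20.03) and X64052cds_f_at (1.02 to 2.02) were under the floor on all arrays. For Agtr2, on the X chromosome, U01908cds_s_at ranged from 4.01 to 11.04 and D16840_s_at from 0.80 to 1.09, also under the floor throughout. At this sensitivity no level of the AT2 receptor transcript was measurable in any group.

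A probe set was called when it differed at least 2-fold with at least 1 of both arrays over the floor. Terminal heart failure against SD control had 1 of the 5 members over the floor called (U03734_at), where 16.0% of all such probe sets were. Against dTGR, terminal heart failure again had 1 of 5 (U03734_at; 19.8% of all), and against losartan-treated dTGR it had 2 of 6 (U03734_at higher and M90065cds_f_at lower; 16.0% of all). In dTGR against SD control 1 of 6 was called (S37461_f_at; 14.1% of all), and in losartan-treated dTGR against dTGR 1 of 6 (S37461_f_at; 16.2% of all). In losartan-treated dTGR against SD control it was 1 of 6 (M90065cds_f_at; 8.88% of all). Counts of 1 or 2 among so few are near these shares and are no result about the group of genes. These 6 comparisons share arrays and are not independent of each other.

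The arrays differed in handling. The dTGR and control arrays came from 1 chip lot and the terminal and losartan arrays from another. The terminal array was scanned on its own day, and the dTGR array alone had 0 wash cycles and 0 seconds of first stain in its fluidics record, against 10 and 4 cycles and 600 seconds for the others. Within the first lot, Ace was 1.48-fold higher in dTGR than in SD control, and within the second it was 3.51-fold higher in terminal heart failure than in losartan-treated dTGR. Scan day and terminal heart failure cannot be told apart. Every comparison other than these within a lot sets 1 chip lot against the other.

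The ventricle RNA carried heart markers on all arrays. Of 12 cardiomyocyte markers, 10 had a probe set and all 10 were over the floor on every array, with summed intensities of 102000 in terminal heart failure, 213000 in dTGR, 145000 in losartan-treated dTGR and 112000 in SD control. In RNA of whole tissue, fewer cells of a type and less RNA per cell cannot be told apart, so markers of cells that can make the converting enzyme are set beside Ace. Of 12 endothelial markers 8 were represented, Edn1 being under the floor on all arrays and none at 0, and their summed intensity was 793 in terminal heart failure, 961 in dTGR, 839 in losartan-treated dTGR and 706 in SD control. Of the 6 over the floor in terminal heart failure or SD control, 0 differed upward by 2-fold and 1 was lower in terminal heart failure. This was Kdr, the main receptor of vascular endothelial growth factor (2.03-fold). Over all genes, 6.38% were past 2-fold higher and 8.40% lower there. The median log2 difference of those 6 was 0.29 beside -0.14 over all genes. Flt1 was 1.64-fold and Icam2 1.15-fold higher, both under 2-fold. Against losartan-treated dTGR, 1 of 6 was past 2-fold higher in terminal heart failure and 1 was lower. These were Flt1 (3.85-fold, near the floor after losartan) and Kdr (4.51-fold). The median log2 difference there was 0.29 beside -0.12 over all genes. In that comparison 16.0% of all probe sets over the floor were past 2-fold in either direction, and no share by gene was taken. Pecam1, an adhesion molecule of endothelial junctions, had 247.60 in terminal heart failure, 112.60 in dTGR, 150.4 in losartan-treated dTGR and 140.90 in SD control, and Nos3, the endothelial nitric oxide synthase, had 117.40, 101.50, 100.7 and 90.80 on the same arrays. Both were highest on the terminal array, by less than 2-fold over SD control. Thbd, the endothelial thrombomodulin, was lowest there on its brightest probe set, with 173.40 in terminal heart failure, 305.40 in dTGR, 256.5 in losartan-treated dTGR and 224.50 in SD control. Its other probe set was lowest on the losartan array instead (50.70, 35.40, 27.03 and 66.70 on the same arrays). Both Thbd probe sets were lower in terminal heart failure than in SD control. Of the 5 other Nos3 probe sets, 1 was under the floor on both arrays and the rest had log2 differences of terminal heart failure from SD control from -0.79 to 1.18, so the direction of Nos3 was not settled.

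Of 10 macrophage markers 7 were represented and none was at 0. Their summed intensity was 5170 in terminal heart failure, 3650 in dTGR, 3580 in losartan-treated dTGR and 3050 in SD control. Past 2-fold in terminal heart failure against SD control, 4 of 7 were higher and 1 lower (Cd74). The median log2 difference was 1.04 beside -0.14 over all genes. Over all genes, 6.38% were past 2-fold higher and 8.40% lower in that comparison, for this list and those below. Lyz2, a lysozyme of macrophages, had 2122.10 in terminal heart failure, 1047.40 in dTGR, 684.8 in losartan-treated dTGR and 582.80 in SD control, the same order of arrays as Ace. Of 10 fibroblast markers 9 were represented. They summed to 15900 in terminal heart failure, 14300 in dTGR, 16800 in losartan-treated dTGR and 16500 in SD control, a sum in which Dcn, a matrix proteoglycan, had 11484 in terminal heart failure and 7670 in SD control. In terminal heart failure against SD control 1 was higher (Postn, a matricellular protein, at least 3.99-fold) and 3 were lower, Col3a1 by 4.02-fold, Lum by 3.18-fold and Col1a1 by 2.15-fold. Of 7 adipocyte markers 6 were represented, none at 0 and Plin1 under the floor on all arrays, and they summed to 2160 in terminal heart failure, 1920 in dTGR, 1880 in losartan-treated dTGR and 1440 in SD control. Of the 4 over the floor in terminal heart failure or SD control 2 were higher and 0 lower, with a median log2 difference of 1.05 beside -0.14 over all genes. They were Lipe, a lipase (4.38-fold, with a log2 difference of 0.18 on its other probe set), and Cfd, complement factor D (2.38-fold). In the sum, Lipe had 672.20 in terminal heart failure and 153.30 in SD control. Fabp4 was 1.81-fold higher, whereas Lep was 1.44-fold lower, with 528.80 in terminal heart failure and 759.30 in SD control. Of 6 smooth muscle markers 5 were represented, and 0 were past 2-fold in terminal heart failure against SD control by their brightest probe sets. Their median log2 difference was -0.15 beside -0.14 over all genes, though another probe set of Acta2, a smooth muscle actin, had -1.93. The part of these cell types in the Ace difference was not tested.

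**Figure D3:**
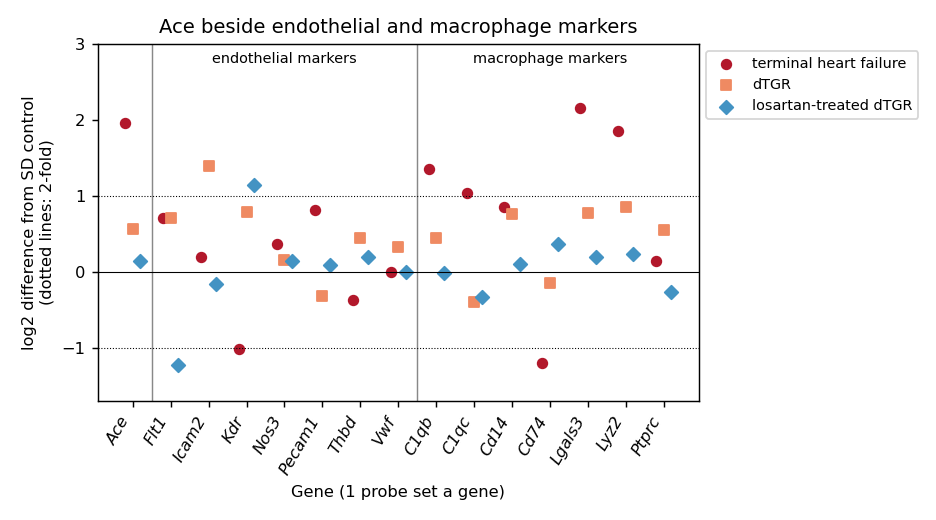
log2 difference from SD control of Ace (U03734_at) and of the endothelial and macrophage markers over the floor on at least 1 array, each by its brightest probe set, for terminal heart failure (circles), dTGR (squares) and losartan-treated dTGR (diamonds). In terminal heart failure Ace lies at 1.96, no endothelial marker is above 0.81 on these probe sets (another of Nos3 had 1.18), and Lgals3 (2.16), Lyz2 (1.86), C1qb (1.36) and C1qc (1.04) are past the dotted 2-fold line.

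The profile of Ace over the 4 arrays was compared with that of each of 364 probe sets of single other genes that were over the floor on all arrays and had at least 80% of its range. The measure was the root mean square distance of log2 values after each profile was centred on its own mean. The nearest was Slc3a2, the heavy chain of several amino acid transporters, at a distance of 0.064. Its intensities were 899.30 in terminal heart failure, 333.60 in dTGR, 275.5 in losartan-treated dTGR and 248.40 in SD control. Next came Lgals3, which encodes galectin 3, at 0.092, and Amd1, an enzyme of polyamine synthesis, at 0.116. All 3 had the order of arrays seen for Ace, which largely follows from choosing the nearest profiles, and 4 arrays leave many genes with similar profiles. Another Slc3a2 probe set had a log2 difference of terminal heart failure from SD control of 1.32, beside 1.86 for the nearest one.

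Other genes of the system were read from lists, with the brightest probe set for each gene. Over all genes, terminal heart failure against SD control had 6.38% past 2-fold on the higher side and 8.40% on the lower, beside 7.69% and 5.87% in dTGR against SD control, and 5.90% and 9.50% in losartan-treated dTGR against dTGR. Of 22 further renin-angiotensin and kallikrein-kinin genes, 15 were represented and 12 were over the floor on at least 1 array, while Mas1, Mme and Bdkrb2 were under it on all. In terminal heart failure against SD control 0 of 11 were higher and 1 was lower, in dTGR against SD control 0 of 12 and 1, and in losartan-treated dTGR against dTGR 0 of 12 and 2. The lower gene in the first pair of comparisons was Anpep, an aminopeptidase that trims angiotensin peptides, with 75.10 in terminal heart failure, 73.60 in dTGR, 126.9 in losartan-treated dTGR and 194.60 in SD control. Another Anpep probe set, M25073_at, went the other way, with log2 differences from SD control of 0.66 in terminal heart failure and 0.97 in dTGR, so the direction of Anpep was not settled.

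After losartan, the lower genes were Bdkrb1, the inducible kinin receptor, and Thop1, a peptidase that can form angiotensin-(1-7). Bdkrb1 had 68.20 in terminal heart failure, 82.40 in dTGR, 28.05 in losartan-treated dTGR and 101.10 in SD control. It was lowest on the losartan array, 2.94-fold below dTGR. Its other probe set, AJ132230_at, had 11.00 in terminal heart failure, 55.50 in dTGR, 16.03 in losartan-treated dTGR and 58.80 in SD control, so both the losartan and the terminal array were under the floor there (log2 difference of losartan-treated dTGR from dTGR -1.09, a bound). Thop1 was 2.22-fold lower than in dTGR. Cma1, a mast cell chymase of the kind that can also form angiotensin II, had 34.30 in terminal heart failure, 42.60 in dTGR, 67.5 in losartan-treated dTGR and 55.70 in SD control, with no difference from SD control past 2-fold. Cpa3, a mast cell carboxypeptidase, was under the floor in terminal heart failure and had 81.70 in dTGR, 43.2 in losartan-treated dTGR and 48.40 in SD control.

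Of 16 aldosterone and mineralocorticoid genes, 12 were represented and 8 were over the floor on at least 1 array. Terminal heart failure had 2 of 7 higher and 2 lower than SD control. Hsd11b1, the enzyme that regenerates active glucocorticoid, had 1800.80 in terminal heart failure, 723.10 in dTGR, 671.1 in losartan-treated dTGR and 569.80 in SD control, 3.16-fold above SD control on the terminal array. Nr3c2, the mineralocorticoid receptor, had 19.07 in terminal heart failure, 60.90 in dTGR, 50 in losartan-treated dTGR and 78.20 in SD control, at least 3.01-fold lower in terminal heart failure than in SD control. Its other probe set was also under the floor on the terminal array, with a bound of -0.48 on the log2 scale. Cyp21a1, a steroid hydroxylase, had a terminal value at least 2.16-fold above SD control, and Cyp11a1, the first enzyme of steroid synthesis, was 3.12-fold lower than in SD control. Hsd11b2, which shields the mineralocorticoid receptor from glucocorticoid, and Cyp11b2, the aldosterone synthase, were under the floor on all arrays. In dTGR against SD control 1 of 7 was higher (Scnn1a) and 1 lower (Cyp11a1), and in losartan-treated dTGR against dTGR 0 were higher and 1 was lower. That gene was again Scnn1a, a subunit of the epithelial sodium channel, over 2 times the floor in dTGR (78.50) and near or under the floor on the other arrays.

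Of 39 genes that carry the AT1 signal onward, 31 were represented. Of the 24 over the floor in terminal heart failure or SD control, the terminal value was past 2-fold higher for 3 and lower for 0. Jak2, a kinase that AT1 activates, had 168.50 in terminal heart failure, 77.50 in dTGR, 46.9 in losartan-treated dTGR and 52.90 in SD control. It was 3.19-fold higher in terminal heart failure than in SD control, with log2 differences of 0.47 and at least 2.28 on its other probe sets. Rock2, a kinase downstream of RhoA, was 2.43-fold higher (1.17 on the log2 scale on another probe set), and Grk5, which desensitises receptors, was 2.25-fold higher. In dTGR against SD control 2 of 26 were higher and 1 was lower (Rock2, by at least 2.05-fold). Plcb3, a phospholipase that makes inositol trisphosphate, was 2.96-fold higher in dTGR, and Ptk2b, a calcium-sensitive kinase, was at least 3.32-fold higher. Their other probe sets were under the floor on both arrays.

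In losartan-treated dTGR against dTGR, 3 of 26 genes of AT1 signalling were higher and 5 were lower, with a median of 0.09 beside -0.05 over all genes. The higher ones were Rock2 (at least 2.07-fold) and the phospholipases Plcb2 (2.37-fold) and Plcb4 (2.18-fold). Another probe set of Plcb4 had a log2 difference of -0.42, and the other of Rock2 had 0.41, a bound. The lower ones included Arrb2, a beta-arrestin that takes up activated receptors, which had 36.3 in losartan-treated dTGR and 108.80 in dTGR, 3.0-fold lower, with -1.10 on the log2 scale on its other probe set. Plcb3 was 3.16-fold lower, Ptk2b 2.78-fold and Rhoa, a small GTPase, 2.38-fold. The other Plcb3 probe set was under the floor on both arrays. The other Ptk2b probe set went the other way, with a bound of 0.06 on the log2 scale, near the floor after losartan and under it in dTGR. Grk2, a receptor kinase, was 2.20-fold lower, but its other probe set was higher by 1.0 on the log2 scale. All of these are differences from the dTGR array, the one with its own fluidics record, and they are also differences between chip lots. The part of handling in them was not tested.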

How the data were processed

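The deposited table holds linear intensities, 1 for each probe set on each array. How the authors computed them, and any detection calls, are not given in the sources that were used. The instrument records deposited with each array hold other values, the chip lot, scan day and fluidics steps, and were used only to describe handling. Of 15281 values from 1 to under 32, 13625 have decimals in the form of a day and month, as a spreadsheet leaves them, and so do 38 of the 52 member values, which shifts a value by less than 1 unit. The arrays were brought to a common trimmed mean (2% off each end), the 40th percentile over the 4 arrays together served as a floor for lower values, and differences were taken on the log2 scale. Controls (59) and probe sets with no gene symbol (1426) were left out, which left 7314. Folds with 1 side under the floor are lower bounds. With 1 array a group no test was run. Gene symbols came from the platform annotation, and the gene identifiers of all 5 members matched RefSeq's GRCr8 table. The members, lists, alternatives and the rule for named genes were chosen with earlier results of these data known. That rule names all member probe sets, the 3 list genes with the widest range over the arrays, and the 3 probe sets nearest to a member's profile. Other list genes and all single cell type markers were named after their values were seen. The calls were tried on simulated data in which only probe sets brighter in SD control than any member were changed. The simulated scatter was smaller than that between probe sets of 1 gene here. That trial therefore does not bear on the calls of the members. Software was Python 3.11.15 with pandas 2.3.3, and limma 3.58.1 for cyclic loess.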

Additional observations from a re-analysis of the deposited data

How the results depend on the processing

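The log2 difference of the Ace probe set U03734_at kept its sign and its side of 2-fold in all 6 comparisons under the 7 alternatives run. It ranged from 1.96 to 2.11 for terminal heart failure against SD control, from 1.37 to 1.68 against dTGR and from 1.71 to 1.87 against losartan-treated dTGR. For dTGR against SD control it ranged from 0.33 to 0.68, for losartan-treated dTGR against SD control from 0.14 to 0.27, and for losartan-treated dTGR against dTGR from -0.42 to -0.19. Counts of member probe sets called, 1 in each comparison and 2 for terminal heart failure against losartan-treated dTGR, did depend on the setting. Quantile normalization, scaling to the same median and cyclic loess each gave 0 for dTGR against SD control, 2 for terminal heart failure against dTGR and 3 for terminal heart failure against losartan-treated dTGR, the added probe set being L36664_s_at. They also gave 1 for losartan-treated dTGR against dTGR, but by M90065cds_f_at (higher) in place of S37461_f_at (lower). A floor at the 25th percentile (11.0) gave 2 for dTGR against SD control, 2 for terminal heart failure against dTGR and 4 for terminal heart failure against losartan-treated dTGR. A floor at the 60th percentile (66.2) left only U03734_at measurable, with 0 for dTGR against SD control, 0 for losartan-treated dTGR against SD control, 0 for losartan-treated dTGR against dTGR and 1 for terminal heart failure against losartan-treated dTGR. With no floor but 1 unit they were 3 for terminal heart failure against SD control, 4 for dTGR against SD control, 3 for losartan-treated dTGR against SD control, 4 for terminal heart failure against dTGR and 6 for terminal heart failure against losartan-treated dTGR. Reading low values with 1 decimal, chosen after seeing the data, gave 0 for dTGR against SD control. No called difference of a member changed sign under these settings. Signal over background limits Agt and the receptor genes, and 1 array a group limits all of it. No paired analysis was possible because each group has 1 array.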
